A study of Mus musculus with 32 samples.

Results

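Meiotic DNA double-strand breaks were mapped in 2 mouse strains through DMC1, and the 2 deposited lists of DMC1 intervals were compared here over all their intervals. The B6 list held 14774 intervals and the RJ2 list 15195, together 29969 of the 122081 intervals in the 9 lists of the series. No interval was selected: every interval of both lists is a member, with 13928 B6 and 14273 RJ2 intervals on the 19 autosomes, 835 and 913 on the X chromosome, and 11 and 9 on the Y chromosome. B6 mice were C57BL/6JOlaHsd and carry the Dom2 allele of Prdm9. RJ2 mice were B10.MOLSGR(A)-(D17Mit58-D17Jcs11)/Bdm, which have a C57BL/10 background and the Cst allele of Prdm9 on a segment of chromosome 17 from another strain. Whole testes were taken 5 weeks after birth in both strains, and each strain had 2 ChIP replicates with an antibody against DMC1. The PRDM9 lists set beside them came from mice 13 days old, and the H3K4me3 lists from pachytene cells of adults, so marks and breaks were not measured at the same age. The paper reports more RJ2 than B6 intervals for PRDM9 and for strain-specific H3K4me3. The part of this in the shares of breaks with a mark was not tested. The authors pooled the replicates into 1 list for each strain, so the lists give no value per replicate, and the 95% intervals given for numbers (exact Poisson) and for shares (Clopper-Pearson) cover counting error only. Intervals of 1 list share their mice and libraries and are not replicates of a strain, so no test between strains was made. The lists hold positions on mouse build mm9 without a score or a read count, and their sequencing depth cannot be read from them. The strains differ in Prdm9 and also in background, and the parts of these in any difference cannot be told apart.

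In mice, PRDM9 binds DNA through an array of zinc fingers and methylates lysine 4 of histone H3 (H3K4me3) beside its sites, and SPO11 then cuts the DNA at some of them. The ends are trimmed to single strands, which the recombinase DMC1 coats while the break is repaired from the homologous chromosome. ChIP of DMC1 followed by sequencing of the single-stranded DNA thus marks where breaks were being repaired. Such places are known as hotspots. The zinc fingers of PRDM9 differ between alleles, so strains with different alleles have different hotspots. On the X and Y chromosomes, homologous repair is possible only in the short pseudoautosomal region, and the rest of the X has no homologue in males.

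The sequence at the centres differed between the strains. The 9-base word most in excess in the central 200 bp over stretches 2 kb to either side, on odd-numbered autosomes, was GCAGCAGCA in B6 and AAAGTCACA in RJ2. Words were counted on both strands and then counted again on even-numbered autosomes, which had no part in the choice. There GCAGCAGCA lay in the central 200 bp of 308 of 6721 B6 intervals (4.58%, interval 4.10 to 5.11%), against 0.580% of the stretches 2 kb away. In RJ2 intervals it was found in 46 of 6883 (0.668%, interval 0.490 to 0.890%), against 0.443% 2 kb away. AAAGTCACA lay in 177 RJ2 intervals (2.57%, interval 2.21 to 2.97%), against 0.465% 2 kb away, and in 41 B6 intervals (0.610%, interval 0.438 to 0.827%), against 0.565%. Each word was thus above its flanks in its own strain by far more than counting error. In the other strain the RJ2 word stood at the level of the flanks, and the B6 word was slightly above it.

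The central 200 bp are shown for the 3 widest B6 intervals that hold the B6 word there, as examples of the sequence at B6 breaks. Letters are the plus strand of mm9, and capitals mark the word on either strand.
B6, chr2:120741497-120741696: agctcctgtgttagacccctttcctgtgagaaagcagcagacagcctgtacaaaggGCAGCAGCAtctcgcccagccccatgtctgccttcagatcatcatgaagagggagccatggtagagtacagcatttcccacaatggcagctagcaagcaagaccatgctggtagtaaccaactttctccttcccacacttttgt
B6, chr12:17420004-17420203: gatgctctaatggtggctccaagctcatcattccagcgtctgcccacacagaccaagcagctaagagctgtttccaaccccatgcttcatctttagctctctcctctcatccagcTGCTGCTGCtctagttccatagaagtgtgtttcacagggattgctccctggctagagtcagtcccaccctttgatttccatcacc
B6, chr6:87061242-87061441: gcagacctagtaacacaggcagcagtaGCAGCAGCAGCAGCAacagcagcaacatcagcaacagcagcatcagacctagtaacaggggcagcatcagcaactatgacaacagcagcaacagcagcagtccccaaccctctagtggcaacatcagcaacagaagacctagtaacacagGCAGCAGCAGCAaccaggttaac
The first lies in an intron of Ubr1, a ubiquitin ligase gene, 54854 bp from its start, in an interval 2788 bp wide, and holds the word 40 bp from the centre. The second lies in an intron of Nol10 in an interval of 2566 bp and holds the word on the minus strand 19 bp from the centre. The third is exonic, in D6Ertd527e, and holds 5 matches on the plus strand within a repeat of the same 3 bases. All 3 lay under B6-specific H3K4me3, and the first 2 under a B6 PRDM9 interval.

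The same stretch is shown for the 3 widest RJ2 intervals that hold the RJ2 word.
RJ2, chr15:96325885-96326084: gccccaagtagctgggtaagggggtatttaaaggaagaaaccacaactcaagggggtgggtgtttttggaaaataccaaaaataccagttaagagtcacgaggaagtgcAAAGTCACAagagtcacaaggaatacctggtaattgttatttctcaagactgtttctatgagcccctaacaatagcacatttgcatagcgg
RJ2, chr4:151589896-151590095: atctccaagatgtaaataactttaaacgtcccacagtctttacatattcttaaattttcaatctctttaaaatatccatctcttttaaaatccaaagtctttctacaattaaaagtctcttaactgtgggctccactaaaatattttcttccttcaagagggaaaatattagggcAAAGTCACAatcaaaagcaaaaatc
RJ2, chr7:150790538-150790737: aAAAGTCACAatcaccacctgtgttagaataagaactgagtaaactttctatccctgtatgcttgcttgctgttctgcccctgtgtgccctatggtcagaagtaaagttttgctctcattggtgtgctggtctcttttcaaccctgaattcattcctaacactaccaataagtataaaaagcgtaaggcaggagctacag
The first is intergenic, 34711 bp from the start of Scaf11, in an interval of 2800 bp, with the word 13 bp from the centre. The second lies in an intron of Acot7 in an interval of 2698 bp, 79 bp from the centre. The third is intergenic, 4643 bp from the start of Cars, in an interval of 2414 bp, 95 bp from the centre. All 3 lay under RJ2-specific H3K4me3, and the third under an RJ2 PRDM9 interval. The 6 shown ranked from 86 to 291 by width among autosomal intervals of their strain.

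The words of a strain were related to each other. The 10 words of B6 with the largest excess were GCAGCAGCA, AGCAGCAGC, AGATGCTGC, AGCAGCATC, CAGCAGCAG, GCTGCTGCC, AGCAGCACC, GCAGCACCA, GGCAGCACC and ACAGCAGCA, all of them holding GCAG or its complement CTGC. Those of RJ2 were AAAGTCACA, AGGTCACAT, AAGGTCACA, GAATGTGAC, AGGTCAAAG, GGAATGTGA, AAGTCAAAG, AAAGTCAAA, AGGTCACAG and ACATTCCCA. Any of the 10 B6 words lay in the central 200 bp of 953 B6 intervals of even-numbered autosomes (14.2%, interval 13.4 to 15%) and of 172 RJ2 intervals (2.5%, interval 2.14 to 2.90%). Any of the 10 RJ2 words lay in 855 RJ2 intervals (12.4%, interval 11.7 to 13.2%) and in 188 B6 intervals (2.80%, interval 2.42 to 3.22%). For both sets the level 2 kb away was between 2.37% and 2.87%, so the set of 1 strain did not exceed its flanks at the centres of the other. Within 1 kb of B6 centres, 41.9% of the matches to B6 words lay within 100 bp, a stretch that makes up 10% of the searched length, and in RJ2 it was 31.8% of the matches to RJ2 words. Most intervals of both strains held none of the 10 words.

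GC content also peaked at the centre. Over all autosomal intervals it was 43.7% in the central 200 bp in B6 and 43.8% in RJ2, and 42.7% and 43.0% at 2 to 2.5 kb. Between them lay a trough, with the lowest 50-bp step at 41.6% near 425 bp from the centre in B6 and at 42.1% at -425 bp, on the other side, in RJ2. The shape of a GC peak with a shallow trough on its sides was therefore shared, although the words under the peak were not.

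In B6, intervals with and without a word of their strain carried H3K4me3 at similar shares. PRDM9 was listed somewhat more often at those with a word in both strains. B6-specific H3K4me3 lay at the central 400 bp of 40.4% of the 953 B6 intervals with a word (interval 37.3 to 43.6%) and of 41.5% of the 5768 without (interval 40.2 to 42.7%). A B6 PRDM9 interval lay at 16.1% of those with a word (interval 13.8 to 18.5%) and at 13.2% of the others (interval 12.3 to 14.1%). The B6 ranges overlap slightly, and the difference was not tested. In RJ2, a PRDM9 interval lay at 51.7% of intervals with a word (interval 48.3 to 55.1%) and at 45.4% of those without (interval 44.2 to 46.7%), and these 2 ranges do not overlap. RJ2-specific H3K4me3 lay at 84.1% and 82.3% of them, with ranges that overlap.

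The numbers of intervals were close in both strains. On autosomes there were 5.82 B6 intervals per Mb of known bases (interval 5.72 to 5.92) and 5.96 RJ2 intervals (interval 5.87 to 6.06), a ratio of 1.02 of RJ2 over B6. The numbers were set by the authors' threshold on agreement between replicates, so they are not numbers of breaks per cell. B6 intervals made up 49.4% of all autosomal intervals (interval 48.8 to 50%).

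**Figure D1:**
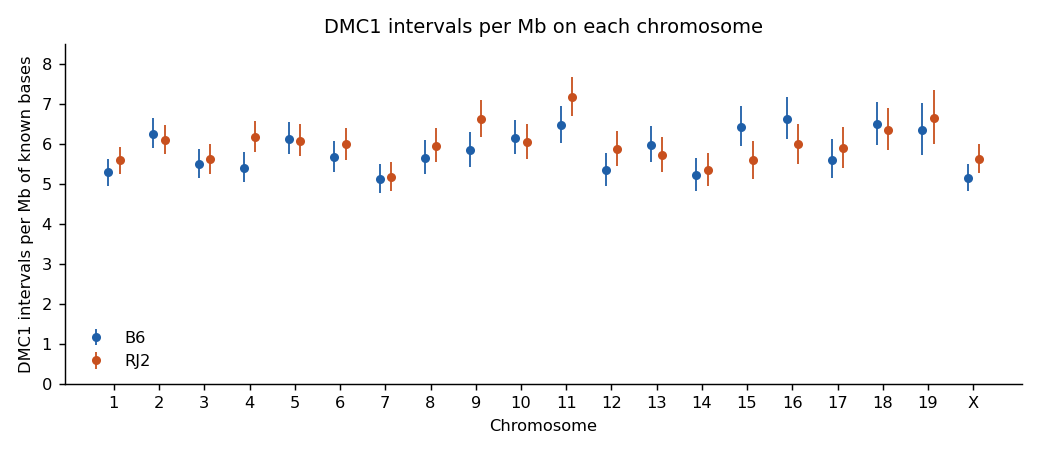
DMC1 intervals per Mb of known bases (vertical axis) on each autosome and the X chromosome (horizontal axis) in B6 (blue) and RJ2 (orange), with 95% Poisson intervals as bars. All values lie between 5.12 and 7.18 per Mb, with both strains lowest among autosomes on chromosome 7.

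Chromosomes differed more from each other than the strains did on most of them. In B6 the density ran from 5.12 per Mb on chromosome 7 to 6.63 on chromosome 16, and in RJ2 from 5.17 on chromosome 7 to 7.18 on chromosome 11. Chromosome 11 held 6.48 intervals per Mb in B6 and chromosome 16 held 5.99 in RJ2. Over the 19 autosomes the densities of both strains had a Spearman's rho of 0.596, given as a description. RJ2 intervals were the more numerous on 12 autosomes. The B6 share was highest on chromosome 15, at 646 of 1207 intervals (53.5%, interval 50.7 to 56.4%), followed by chromosome 16 with 630 of 1199 (52.5%, interval 49.7 to 55.4%). It was lowest on chromosome 4, at 821 of 1759 (46.7%, interval 44.3 to 49%), and chromosome 9 followed with 705 of 1505 (46.8%, interval 44.3 to 49.4%). The range of 2 chromosomes, 15 and 16, lay above the share over all autosomes and that of 1, chromosome 4, below it. The extremes were chosen by rank among 19 and were not tested. On chromosome 17, where RJ2 carries a foreign segment, the B6 share was 49.7% within 10 Mb of Prdm9 (98 and 99 intervals, interval 42.6 to 56.9%) and 48.5% on the rest of the chromosome.

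The X chromosome held 5.15 B6 intervals per Mb (interval 4.81 to 5.51) and 5.63 RJ2 intervals (interval 5.27 to 6.01). These are 88.5% (interval 82.6 to 94.8%) and 94.5% (interval 88.4 to 101%) of the autosomal densities, but 102% and 109% when only bases in unique sequence are counted. Unique sequence was estimated from a 50-base sequence taken every 500 bp, of which 89.4% on autosomes and 77.3% on the X occurred once in the genome. The authors kept only reads that align to 1 place, and their DMC1 reads were 50 bases long. X intervals were wider than autosomal ones in both strains, with medians of 1796 bp in B6 and 1714 bp in RJ2.

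Intervals at the end of the X chromosome overlapped between the strains more often than elsewhere on the X. The last 1 Mb, which holds the gene Mid1 that spans the boundary of the pseudoautosomal region, was singled out after its values were seen. It held 22 B6 and 21 RJ2 intervals in 0.900 Mb of known bases, far denser than the 5.15 and 5.63 per Mb over the whole X. Dense intervals meet more often by position alone, and the part of this in the overlap was not tested. Of these, 14 B6 intervals (63.6%, interval 40.7 to 82.8%) overlapped an RJ2 interval, against 33 of 813 on the rest of the X (4.06%, interval 2.81 to 5.65%). In RJ2 it was 14 of 21 (66.7%, interval 43.0 to 85.4%) against 33 of 892 (3.70%, interval 2.56 to 5.16%). In 9 pairs there the centres lay within 200 bp of each other. Strain-specific H3K4me3 lay at none of the 22 B6 intervals, so the upper limit of the share was 15.4%, and it lay at 204 on the rest of the X (25.1%, interval 22.1 to 28.2%). In RJ2 it lay at 0 of 21, with an upper limit of 16.1%, against 438 (49.1%, interval 45.8 to 52.4%). No H3K4me3 of any list lay at 86.4% of the B6 intervals there (interval 65.1 to 97.1%). On the rest of the X this B6 share was 70.8%, with ranges that overlap. In RJ2 the share without H3K4me3 was 85.7% there (lower limit 63.7%) and 48.9% on the rest of the X (upper limit 52.2%). The ranges of these 2 RJ2 shares do not overlap. RJ2 PRDM9 lay at 3 of the 21 (14.3%) and at 14.0% on the rest of the X, and B6 PRDM9 at 0 of the 22 and at 5.04%. Common H3K4me3, which was listed apart from the specific intervals, lay at 2 B6 and 3 RJ2 intervals of this stretch. Mid1 alone held 15 of the 22 B6 and 16 of the 21 RJ2 centres. The last interval ended 214 kb before the end of the chromosome in both strains. Unique sequence made up 80.1% of this last 1 Mb. On the Y chromosome all 11 B6 intervals lay between 99795 and 744539 and all 9 RJ2 intervals between 139621 and 764385, at the start of the assembled coordinates. There 77.2% of sampled sequences were unique, against 52.0% in the rest of the assembled Y.

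Widths were similar, and B6 intervals were slightly wider. On autosomes the median was 1750 bp in B6 (quartiles 1584 and 1940 bp, range 908 to 4370 bp) and 1696 bp in RJ2 (quartiles 1534 and 1872 bp, range 842 to 4512 bp). The B6 median was the larger on all 19 autosomes, by 10 bp on chromosome 18 up to 99 bp on chromosome 17. The difference was seen on both sides of the distribution: 1.87% of B6 intervals and 1.11% of RJ2 intervals were wider than 2.5 kb, and 0.646% and 2.33% were narrower than 1.2 kb. It was not seen among the widest, as 56 B6 and 61 RJ2 intervals were over 3 kb. In 5-Mb windows the local median widths of both strains had a rho of 0.0871 over 461 windows, so local width was hardly shared, in contrast to local number.

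The widest B6 intervals were chr19:24455414-24459783 (4370 bp) in an intron of Pip5k1b, chr19:44221685-44225962 (4278 bp) in an intron of Pkd2l1, a gene for an ion channel, and chr2:69102758-69106745 (3988 bp) in an intron of Abcb11, the bile salt export pump of the liver. The widest RJ2 intervals were one of 4512 bp on chromosome 18 in an intron of Pde6a, chr5:64450816-64455151 (4336 bp) between genes, 31191 bp from the start of Pgm1, and chr1:10159695-10163972 (4278 bp) in an intron of Arfgef1. All 6 lay under H3K4me3 specific to their strain and none overlapped an interval of the other strain.

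H3K4me3 was listed more often at wide than at narrow intervals, with a different slope in each strain. When autosomal intervals were sorted by width into 5 equal groups, B6-specific H3K4me3 lay at 15.8% of the narrowest B6 group (441 of 2786, interval 14.5 to 17.2%) and at 67.7% of the widest (1886 of 2786, interval 65.9 to 69.4%). In RJ2 the shares were 70% (1999 of 2855, interval 68.3 to 71.7%) and 88.1% (2514 of 2855, interval 86.8 to 89.2%). The narrowest RJ2 group thus carried its mark about as often as the widest B6 group. Per the paper, the RJ2-specific H3K4me3 list is the longer one, and the part of its length in these shares was not tested. Words went with width far less. In B6, any of the 10 words of the strain was found in 15.7%, 14.9%, 13.7%, 13.6% and 13.0% of intervals, from the narrowest to the widest group. This is a small fall, and the ranges of the narrowest and widest groups overlap. In RJ2 a word was found in 11.6% of the narrowest and 11.5% of the widest group. The fourth RJ2 group stood apart, with a word in 16.1% (interval 14.2 to 18.1%). H3K4me3 was mapped in pachytene cells of adult mice with 1 library per strain, so a difference between these libraries and one between the strains cannot be told apart.

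**Figure D2:**
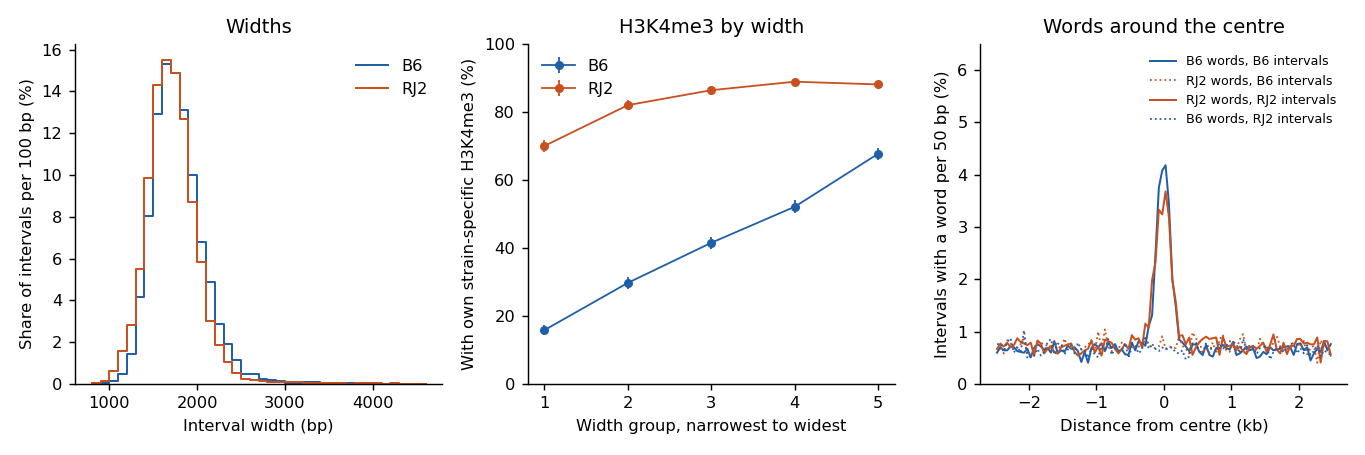
Left, share of autosomal intervals in each 100-bp step of width (horizontal axis, bp). Middle, share of intervals with H3K4me3 specific to their strain in 5 width groups, with 95% Clopper-Pearson intervals, from 15.8% to 67.7% in B6 (blue) and in RJ2 (orange) from 70% in the narrowest to 88.9% in the fourth and 88.1% in the widest group. Right, share of intervals of even-numbered autosomes with any of the 10 words in 50-bp steps around the centre, where words of the same strain (solid) peak at the centre and those of the other strain (dotted) show no peak.

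Neighbouring intervals lay a median of 108 kb apart in B6, centre to centre (quartiles 44.4 and 223 kb), and 102 kb in RJ2 (quartiles 43.2 and 215 kb). Means were 172 and 168 kb, and the SD was 1.31 and 1.34 times the mean. Distances ran from 1.29 kb to 7.24 Mb in B6 and from 1.39 kb to 8.07 Mb in RJ2. The nearest interval of the other strain was about as close as the nearest of the same strain: a B6 interval lay a median of 50.1 kb from an RJ2 interval and 54.9 kb from another B6 interval, and an RJ2 interval 50.6 kb and 52.4 kb.

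At short range the picture differed within and between strains. The density of pairs of centres at a given distance was set relative to the density at 2 to 5 Mb. Pairs of B6 intervals 1 to 5 kb apart were found at 0.435 times that level (138 pairs, interval 0.365 to 0.514) and pairs of RJ2 intervals at 0.624 times (208 pairs, interval 0.542 to 0.715). Pairs of 1 B6 and 1 RJ2 interval were found at 1.3 times (843 pairs, interval 1.21 to 1.39). From 5 to 20 kb all 3 kinds were above the level, at 1.2 (interval 1.14 to 1.27), 1.28 (interval 1.22 to 1.35) and 1.21 (interval 1.16 to 1.25). They then came down together and reached 1.06, 1.05 and 1.06 at 1 to 2 Mb. Within 1 kb there was no pair of the same strain and there were 230 pairs of both strains.

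**Figure D3:**
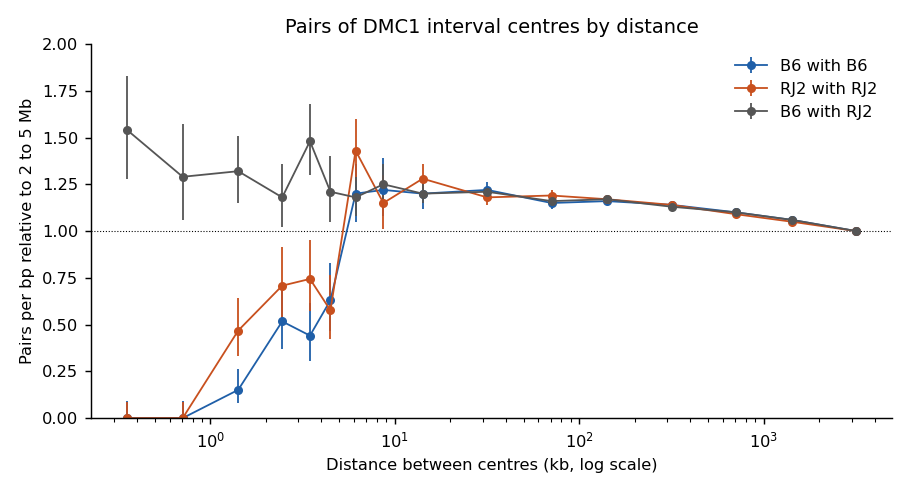
Pairs of centres per bp relative to pairs 2 to 5 Mb apart (vertical axis) by distance (horizontal axis, kb, log scale) for pairs within B6 (blue), within RJ2 (orange) and between the strains (grey), with 95% Poisson intervals as bars. Pairs of the same strain fall below the dotted line at 1 under 5 kb and pairs between strains do not.

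The shortage of close pairs reached beyond the width of the intervals. Only 1 pair of neighbours overlapped in B6 and 5 in RJ2. The 138 B6 pairs of neighbours under 5 kb had a median of 1952 bp between their edges, and the 207 RJ2 pairs 1655 bp. Intervals in such pairs were narrower, with a median of 1490 bp in B6 and 1455 bp in RJ2, against 1754 and 1714 bp for intervals over 100 kb from their nearest neighbour. Among intervals wider than the median of their list, pairs 1 to 5 kb apart came to 0.0384 times the reference level in B6 and 0.0366 in RJ2, but to 1.27 between strains. For all intervals of the X chromosome, of any width, the values at 1 to 5 kb were 0.885 in B6, 0.872 in RJ2 and 2.0 between strains. Peaks that lie close can be merged or thresholded together when they are called, and the part of that step was not tested. H3K4me3 specific to the strain lay at 45.8% of B6 intervals with a neighbour within 5 kb (interval 39.8 to 51.9%). It lay at 42.3% of those with none within 100 kb (interval 40.7 to 43.8%). In RJ2 the shares were 82.4% and 84.2%, so in both strains the 2 shares were equal within counting error. The narrowest of 5 width groups, up to 1546 bp in B6 and 1496 bp in RJ2, carried it at 15.8% and 70%. Close neighbours were narrower, and they were not compared with other intervals of like width.

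Although the places differed, the local number of intervals was shared. Over 2384 autosomal 1-Mb windows with at least 80% known bases, the numbers of B6 and RJ2 intervals had a Spearman's rho of 0.435. It was 0.320 in windows of 0.5 Mb (n = 4781), 0.526 in 2 Mb (n = 1176), 0.640 in 5 Mb (n = 462) and 0.654 in 10 Mb (n = 218). Windows share chromosomes, base composition and the sequence that reads can be placed on, so these are descriptions and carry no p. In windows where at least 80% of the sampled sequences were unique, rho was 0.380 at 1 Mb (n = 2239) and 0.644 at 10 Mb (n = 206). After the ranks of GC content, CpG number, gene starts and unique share were removed, 0.206 remained at 1 Mb and 0.389 at 10 Mb. On the X chromosome rho was 0.796 over 163 1-Mb windows, and 0.717 over the 121 with at least 80% unique sequence.

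The scale of this sharing was a few Mb. The number of B6 intervals in a 1-Mb window had a rho of 0.262 with the number of RJ2 intervals 1 Mb away, 0.137 at 2 Mb and 0.00317 at 5 Mb. Within B6 the values were 0.273, 0.157 and 0.0423, and within RJ2 0.235, 0.144 and 0.00930. A B6 window therefore ranked with a neighbouring RJ2 window about as well as with a neighbouring B6 window. The variance of the number per 1-Mb window was 1.67 times its mean in B6 and 1.73 times in RJ2, and it grew to 3.28 and 3.14 times at 10 Mb.

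**Figure D4:**
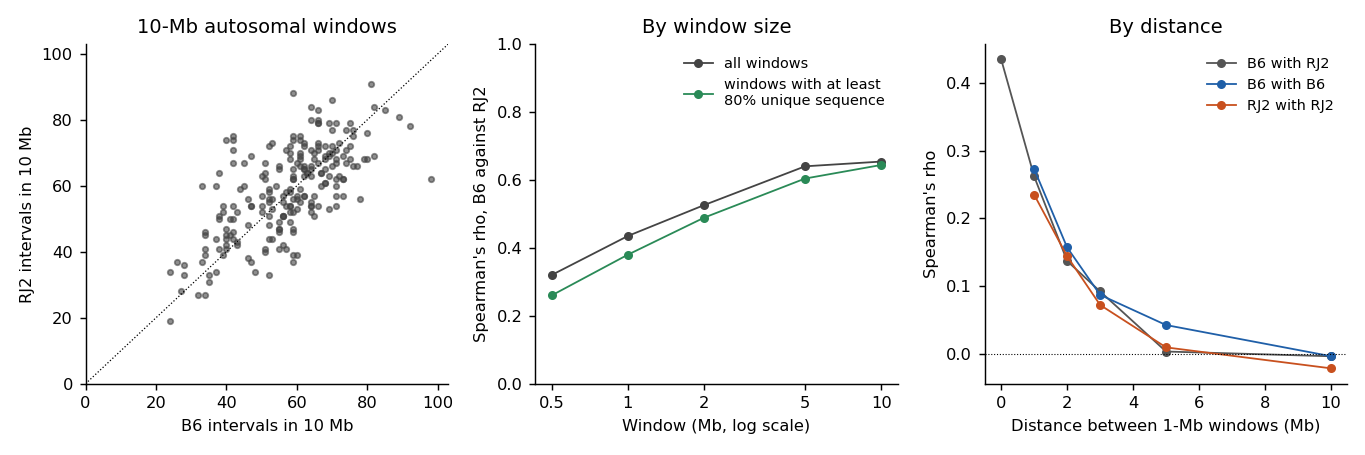
Left, number of B6 (horizontal axis) and RJ2 (vertical axis) intervals in 218 autosomal 10-Mb windows, with a dotted line of equal numbers. Middle, Spearman's rho between strains by window size, from 0.320 to 0.654 over all windows (grey) and from 0.260 to 0.644 over windows of mostly unique sequence (green). Right, rho between 1-Mb windows by their distance, within and between strains, which is near 0 at 5 Mb.

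The fullest 1-Mb window was chr9:123000001-124000000, with 16 B6 and 18 RJ2 intervals. Next were chr16:4000001-5000000 with 15 and 13, and chr17:63000001-64000000 with 12 and 16. The fullest 10-Mb window, chr6:30000001-40000000, held 81 B6 and 91 RJ2 intervals, and the emptiest, chr1:110000001-120000000, held 24 and 19. The latter had a GC content of 37.7% and 4 coding gene starts, the former 42.8% and 74. The B6 share of 10-Mb windows ran from 35.1% to 61.5% around a median of 49.6%. It was highest at chr10:100000001-110000000, with 59 B6 and 37 RJ2 intervals (61.5%, interval 51.0 to 71.2%), and lowest at chr4:130000001-140000000, with 40 and 74 (35.1%, interval 26.4 to 44.6%). Of 218 windows, 5 had a range above the share over all autosomes and 9 below it. With 95% ranges, some of 218 windows fall outside by counting error alone. Whether more did so than that was not tested. The extremes were chosen by rank among 218 and were not tested either. GC content was 37.9% in the window of highest B6 share and 48.9% in that of lowest. In the windows with the next highest and next lowest B6 share, however, it was 43.7% and 44.2%.

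GC content went with the number of intervals in both strains and, at its upper end, with the share of each strain. With 1-Mb windows in 10 groups by GC content, B6 density ran from 3.27 per Mb in the poorest group (35.7 to 37.4% GC) to 7.40 in the group of 42.7 to 43.8% and was 6.29 in the richest (46.9 to 53.7%). RJ2 density ran from 2.92 in the poorest to 7.72 in the group of 45.0 to 46.9% and was 7.47 in the richest. The B6 share was 52.8% in the poorest group (781 and 698 intervals, interval 50.2 to 55.4%) and 45.7% in the richest (1498 and 1778 intervals, interval 44.0 to 47.5%), and these ranges lie on either side of the autosomal 49.4%. In windows of mostly unique sequence the 2 shares were 52.9% and 45.4%. Over all 1-Mb windows, rho with GC content was 0.410 in B6 and 0.514 in RJ2, with CpG number 0.459 and 0.532, with gene starts 0.221 and 0.302, and with H3K4me3 common to both strains 0.395 and 0.443. Each was the larger in RJ2.

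**Figure D5:**
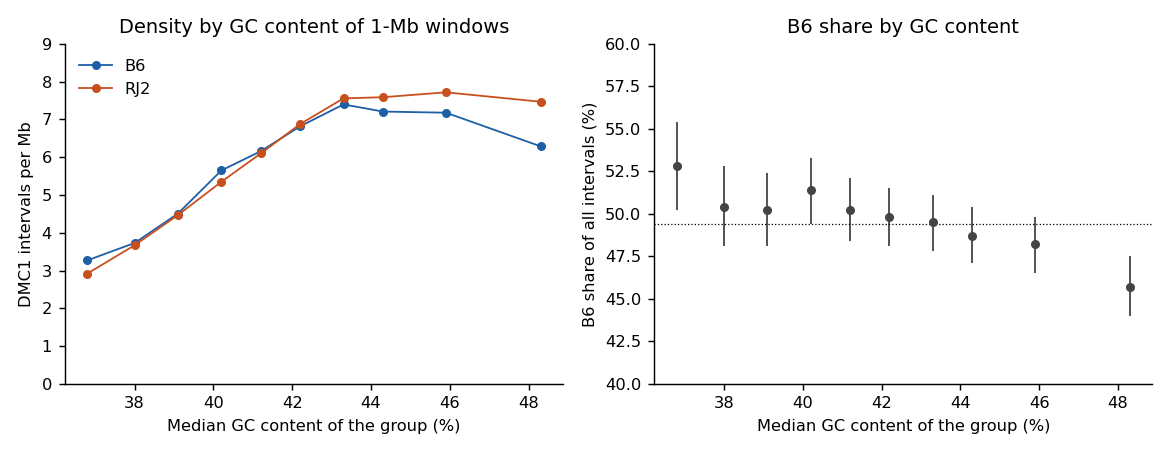
Left, DMC1 intervals per Mb (vertical axis) in 10 groups of autosomal 1-Mb windows by GC content (horizontal axis, median percent of the group) in B6 (blue) and RJ2 (orange). Right, B6 share of the intervals of both strains in the same groups, with 95% Clopper-Pearson intervals and the share over all autosomes as a dotted line. The share runs from 52.8% in the poorest to 45.7% in the richest group.

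Along the chromosomes the last of 10 equal parts, farthest from the centromere, was the densest in both strains, with 6.85 B6 and 7.07 RJ2 intervals per Mb. The lowest values were 5.23 in the eighth part for B6 and 5.59 in the sixth for RJ2. The last 10 Mb of the autosomes held 7.04 and 7.09 intervals per Mb and the first 10 Mb 6.21 and 6.22, against 5.69 and 5.85 between them. GC content of these windows was a median of 44.4%, 41.4% and 41.5%, and its part in the difference was not tested.

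Gaps without breaks of at least 1 Mb and at most 10% unknown bases numbered 136 in B6 and 132 in RJ2. Most of them were not free of the other strain. RJ2 intervals lay in 127 of the B6 gaps, 527 in all or 2.65 per Mb, and B6 intervals in 125 of the RJ2 gaps, 473 in all or 2.45 per Mb, both below the autosomal densities. The B6 gap with the most RJ2 intervals was chr2:26836262-28155887, 1.32 Mb long with 14 of them and a GC content of 50.6%. The RJ2 gap with the most B6 intervals was chr15:20881081-23013095, 2.13 Mb long with 13 and a GC content of 36.7%.

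In 36 stretches of at least 1 Mb, 64.0 Mb in all, neither strain had an interval. The longest was chr7:6841822-10837480, 4.0 Mb with 35 coding genes, of which 24 were Vmn2r genes for pheromone receptors. The next were chr12:21338741-25202184, 3.86 Mb with 8 coding genes, and chr7:20613791-24220963, 3.61 Mb with 87 coding genes, 48 of them pheromone receptor genes of the Vmn1r family. Of the sampled sequences in these 3 gaps, 19%, 21.4% and 7.93% occurred once in the genome. Whether breaks there could have been detected was not tested, as the reads were paired and a pair can be placed where a single 50-base sequence cannot. Unique sequence was under 80% in 18 of the 36 gaps, and in 29 of the 33 1-Mb windows that held no interval of either strain. Over all 2384 1-Mb windows it was under 80% in 145. The median unique share was 12.6% in the empty windows and 91.8% in all windows. The longest gaps in the X list, 10.4 Mb in B6 and 10.1 Mb in RJ2, lay over the same part of the chromosome with 17.6% and 15.7% unique sequence.

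Other gaps lay in sequence that was mostly unique. The longest was chr17:37620679-39985176, 2.36 Mb with 82.3% unique sequence, where 30 of 33 coding genes were olfactory receptors of the Olfr family, and with 22 intervals of common H3K4me3. Next were chr17:17932905-19813063, 1.88 Mb with 12 Vmn2r genes and the formyl peptide receptors Fpr1, Fpr2 and Fpr3, and chr4:112265691-113724746, 1.46 Mb with 4 coding genes, all of the Skint family. The gaps chr2:45524137-46929157 (1.41 Mb, 89.5% unique) and chr5:58565025-59955656 (1.39 Mb, 84.9% unique) held no coding gene. Their GC content ran from 36.8% to 37.8% in all 5.

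Clusters of at least 10 genes of a family, joined over up to 500 kb, were few in breaks where they held chemosensory receptors. The 23 Olfr clusters covered 27.2 Mb of known bases with 64 B6 and 63 RJ2 intervals, or 2.35 and 2.31 per Mb, and in the 17 of them with at least 80% unique sequence 2.34 and 2.71 per Mb. Their GC content was 38.7%, and 1-Mb windows of 38.5 to 39.7% GC held 4.51 and 4.47 per Mb. The 7 Vmn1r clusters held 1.54 and 1.44 intervals per Mb and the 4 Vmn2r clusters 0.457 and 0.457, at 51.0% and 65.7% unique sequence. The Skint cluster, of genes for T cell selection in the skin, held 1 and 3 intervals in 2.33 Mb, and the Mup cluster of urinary proteins 0 and 1 in 1.69 Mb with 27.3% unique sequence. Clusters of keratin genes (Krt, 5.22 and 5.97 per Mb) and zinc finger genes (Zfp, 4.85 and 4.41) came closer to the autosomal level. In the 3 Zfp clusters with at least 80% unique sequence there were 19 B6 and 10 RJ2 intervals, or 8.64 and 4.55 per Mb. Histone genes (Hist) had 6 and 5 intervals in 0.732 Mb and the protocadherin cluster (Pcdh) 8 and 6 in 1.35 Mb.

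Relative to genes, the strains were placed alike. Centres lay within 1 kb of a transcription start in 410 B6 intervals (2.94%, interval 2.67 to 3.24%) and 440 RJ2 intervals (3.08%, interval 2.81 to 3.38%), where 3.18% of known bases lie. Promoters were thus neither fuller nor emptier than their size, within counting error. Other exonic bases held 3.75% of B6 centres (interval 3.44 to 4.08%) and 3.55% of RJ2 centres (interval 3.25 to 3.87%), above the 2.33% of bases they make up. Introns held 44.3% and 44.2% against 34.8% of bases, and sequence between coding genes 49% and 49.1% against 59.7%. The median distance to the nearest start was 35.5 kb in B6 and 34.5 kb in RJ2.

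Single genes could still differ. The coding genes with the most centres were the long models Gm20388 (4435 kb, 28 B6 and 27 RJ2), Fgfr2 (3009 kb as annotated, 26 and 16) and 1700112E06Rik (1036 kb, 15 and 14). Lrp1b, a large lipoprotein receptor gene, held 14 and 10. Frmd4a, a gene for a scaffold protein of cell polarity, held 13 B6 and 2 RJ2 centres in 596 kb, or 21.8 and 3.35 per Mb. The reverse was seen at Dab1, which acts in reelin signalling, with 8 B6 and 16 RJ2 centres in 1125 kb, and at Arhgap26 with 7 and 13. These genes were named for their high counts in a strain, and their differences were not tested.

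At genes of earlier hotspot studies, the strains had different intervals. Psmb9 and H2-Eb1 in the major histocompatibility complex, known for hotspots of particular haplotypes, held no centre of either strain, with the nearest RJ2 centres 1.74 kb and 8.42 kb away and the nearest B6 centres 228 kb and 99.7 kb. Hlx, a homeobox gene, had a B6 centre 11 kb and an RJ2 centre 4.17 kb outside it. Esrrg, the gene for an orphan nuclear receptor, held 7 B6 and 8 RJ2 centres, of which 1 pair overlapped.

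Of 32 genes that act in meiotic recombination, 31 were found in the annotation, 8 held a B6 centre and 9 an RJ2 centre, while 20% and 20.4% of autosomal coding genes did. Atm, a kinase that limits breaks, held 1 B6 centre in chr9:53305630-53307853, under B6-specific H3K4me3. Hormad2, for a protein of the chromosome axis, held 3 RJ2 centres, all under RJ2-specific H3K4me3. Zcwpw1, a reader of the marks that PRDM9 writes, held 1 B6 centre 857 bp from its start in common H3K4me3. Mei4, Msh4 and Tex11 held centres of both strains.

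Mei4, which is needed for break formation, held the same 2 places in both lists. They were chr9:81820111-81821944 in B6 with chr9:81820058-81821943 in RJ2, and chr9:81918433-81920100 in B6 with chr9:81918426-81920203 in RJ2. The centres lay 27 bp and 48 bp apart, all 4 lay in exons, and none met a PRDM9 interval of its strain or an H3K4me3 interval of any list. The lack of H3K4me3 was common in B6, at 54.2% of autosomal intervals, and less so in RJ2, at 13.5%. PRDM9 peaks shared by the strains had been removed from the PRDM9 lists, so the lack of one at a shared place says little. The Mei4 places were described in detail after their values were seen. Prdm9 itself held 2 RJ2 centres and no B6 centre, the nearest of which lay 113 kb away. The first RJ2 interval, chr17:15679107-15682582, was 3476 bp wide and centred in an exon, and the second, chr17:15689120-15690467, was intronic. In the first, 71.4% of the sampled sequences were unique. Neither met H3K4me3 or a PRDM9 interval, while RJ2-specific H3K4me3 lay at 83.1% of autosomal RJ2 intervals. In RJ2 this locus has the sequence of another strain, and reads were aligned to that of C57BL/6, the effect of which was not tested.

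Few intervals of the 2 strains met, and those that met differed in their marks. Pairs of 1 B6 and 1 RJ2 centre under 0.5 kb apart were still found at 1.54 times their density at 2 to 5 Mb (125 pairs, interval 1.28 to 1.83). On autosomes 388 B6 intervals overlapped an RJ2 interval (2.79%, interval 2.52 to 3.07%), in 105 of them with the central 400 bp. At these 105, common H3K4me3 lay at 44 B6 centres (41.9%, interval 32.3 to 51.9%), against 427 of the 13540 that met no RJ2 interval (3.15%, interval 2.87 to 3.46%). B6-specific H3K4me3 lay at 4 of the 105 (3.81%, interval 1.05 to 9.47%) against 42.0% of those that met none. In RJ2, common H3K4me3 lay at 45 of 105 (42.9%, interval 33.2 to 52.9%) against 2.90%, and RJ2-specific H3K4me3 at 41 (39.0%, interval 29.7 to 49.1%) against 83.8%. Within 1 kb of a start lay 6 of the 105 centres in each strain (5.71%, interval 2.13 to 12%), against 2.90% of B6 and 3.05% of RJ2 centres that met none, which for B6 and RJ2 alike lies inside that range. H3K4me3 found at a place in both strains was listed as common, so a shift from specific to common intervals at shared places follows in part from how the lists were made.

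Centres lay within 200 bp of each other in 61 autosomal pairs. The places named here were chosen after their values were seen. Common H3K4me3 lay at 25 of them, B6-specific H3K4me3 at 3 and RJ2-specific H3K4me3 at 22, and 11 (18%, interval 9.36 to 30%) met none of these. Over all autosomal intervals, 54.2% in B6 and 13.5% in RJ2 met no H3K4me3, and of those 321 of 7548 in B6 and 110 of 1932 in RJ2 were exonic. Among the 11, 4 were exonic, namely the 2 places in Mei4, 1 in Parg and 1 in Gm960. A further 2 coincident places lay in the neighbouring gene models Gm10801 and Gm10800 on chromosome 2, with centres 8 and 31 bp apart, common H3K4me3 at both and unique sequence in 75% and 66.7%. On the X chromosome 17 pairs of centres lay within 200 bp, 9 of them in its last 1 Mb. Of the 17, 13 met no H3K4me3 (76.5%, interval 50.1 to 93.2%), while on the rest of the X no H3K4me3 lay at 70.8% of B6 and 48.9% of RJ2 intervals.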

How the data were processed

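DMC1-bound single-stranded DNA was sequenced from whole testes, with 2 ChIP replicates per strain among the 32 libraries of the series. Per the methods of the study, the authors aligned reads to mm9 with a modified BWA for single-stranded DNA, discarded duplicates and reads with several placements, ran MACS to find peaks, set the number of peaks from the irreproducible discovery rate between replicates and pooled the replicates. The deposited lists hold interval positions only, with no score, count or signal. H3K4me3 intervals came from 1 library per strain and were deposited as common or specific to a strain, and PRDM9 intervals shared by the strains had been removed. Of 9 lists, 7 were used, and the 2 of mutant mice were not used here. No column of per-sample values was left unmapped.

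The scripts ran in Python 3.11.15 with numpy 2.4.6, scipy 1.17.1, pandas 2.3.3, numba 0.67.0 and matplotlib 3.10.9, and were tested on simulated data. Densities were taken per Mb of bases other than N. Windows needed at least 80% known bases, and gaps at most 10% unknown bases. Uniqueness was read from 50-base sequences taken every 500 bp. Marks were counted at the central 400 bp. Words of 9 bases were chosen on odd-numbered and counted on even-numbered autosomes. Genes came from GENCODE vM1 on the same build, in place of the RefSeq genes first planned, as its coordinates are those of mm9. The text names, per strain, the 3 widest intervals, the longest gaps, the 5 genes with the most centres, the fullest and emptiest windows, and genes of hotspot and meiotic lists. Not every gene of these lists is reported singly here. The members and lists were chosen with earlier results of these data known. Sequencing depth is unknown from the lists. Poisson and Clopper-Pearson limits at 95% cover counting error only.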

Additional observations from a re-analysis of the deposited data

How the results depend on the processing

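Of 74 alternative values over 25 results, 28 moved by less than counting error or, for counts, by less than 1.5 times, 44 moved by more and 2 reversed. For the ratio of RJ2 over B6 density, dividing by whole length or by unique bases changes both strains alike. Those alternatives could not differ from the main value, yet they are among the 28. Each list was cut at its own median width, so that alternative left little room for the ratio to move. The 2 that reversed were the X densities relative to autosomes, which came to 102% in B6 and 109% in RJ2 per Mb of unique sequence. In RJ2 the main value of 94.5% had an interval of 88.4 to 101%, which already reached the autosomal level. With only intervals wider than the list median, which stands in for a stricter threshold, the B6 X density was 97.5% of that of autosomes, gaps of at least 1 Mb numbered 412 in B6, 393 in RJ2 and 124 in both, and rho over 1-Mb windows was 0.282. Over windows of 0.5, 2, 5 and 10 Mb rho was 0.320, 0.526, 0.640 and 0.654, and in mostly unique 1-Mb windows 0.380. The width difference on the X was 82.0 bp. The share of B6 intervals that met RJ2 intervals was 0.754% by the central 400 bp, 1.34% by 50% of both and 0.438% by centres within 200 bp. Promoter shares of B6 and RJ2 were 3.60% and 3.67% by any base of the central 400 bp and 5.94% and 6.17% within 2 kb of a start. The word was found in 6.89% of B6 and 4.27% of RJ2 intervals in the central 500 bp, in 18.7% and 20.3% where 1 base may differ, and any of 10 words in 14.2% and 12.4%. The cause was not tested where the alternative does not itself change the bases, intervals or letters counted. The alternatives on unique sequence, on 10 words and on close pairs were chosen after seeing the data. No paired analysis was possible because neither list gives values by replicate, and leaving out a replicate was not run for the same reason. Depth and threshold limit which breaks are listed, and neither can be varied in these lists.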

Other observations

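Bodies of genes of large families differed in how many intervals they held. The 361 Zfp genes, for zinc finger proteins, held 95 B6 and 74 RJ2 centres in 10.6 Mb, in 90 of the genes. The 1106 Olfr genes held 1 and 5 centres in 1.92 Mb, and the 124 Vmn2r genes 2 and 6 in 3.12 Mb. The 67 Hist genes, 11 Skint genes, 21 Mup genes and 9 Speer genes held none of either strain, in 0.111, 1.52, 0.340 and 0.0489 Mb. All 21281 coding genes held 7164 B6 and 7317 RJ2 centres, or 7.42 and 7.58 per Mb.

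Local width and local number were inversely ranked in both strains, weakly so in small windows. Over 218 autosomal 10-Mb windows, the median width had a rho of -0.245 with the number of intervals in B6 and -0.366 in RJ2. With GC content it was -0.0624 in B6 and -0.342 in RJ2. Over 1840 1-Mb windows the values were -0.0761 and -0.0581 with number, and -0.0589 and -0.124 with GC content. Windows share chromosomes and libraries, so these are descriptions, and no cause was tested.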
